A study of Homo sapiens with 18 samples.

Results

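The comparison set knockdown of CTBP1-AS against knockdown of PSF in VCaP cells, a human prostate cancer line that carries the TMPRSS2-ERG gene fusion and responds to androgen. Its members are 4 of the 18 arrays of the series: siCTBP1-AS (the siRNA marked #2 in the labels) with R1881 and with vehicle, and siPSF with R1881 and with vehicle, all chosen by their labels. The 2 siControl arrays of the same VCaP set, with R1881 and with vehicle, served as a common background. R1881 is a synthetic androgen and was used at 1 nM. All VCaP cells had been kept for 3 days in 5% serum stripped of steroids with charcoal, and siRNAs went in 48 h before hormone. The other 12 arrays are from LNCaP, an androgen-responsive prostate cancer line without the ERG fusion, in 3 sets: siCTBP1-AS with 10 nM R1881 or vehicle, siCTBP1-AS #2 with 1 nM R1881 or vehicle, and siPSF with 10 nM R1881 or vehicle, each set with siControl of its own and 2.5% serum. There was 1 array per siRNA and treatment in a set. The labels name no separate cultures, so the p-values reflect the spread among these arrays, part or all of which may be technical.

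CTBP1-AS is a long non-coding RNA transcribed antisense to CTBP1, the gene of a transcriptional corepressor, and is induced by androgen in prostate cancer cells. PSF is the protein made from SFPQ. It binds RNA, belongs with NONO and PSPC1 to the proteins of nuclear paraspeckles, and takes part in splicing, transcription and the recruitment of histone deacetylases. The antisense RNA is known to bind PSF, so setting both knockdowns side by side asks where loss of the RNA and loss of its protein partner give different expression.

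SFPQ, the target of siPSF, had log2 signals of 11.15 with R1881 and 11.26 with vehicle in siCTBP1-AS cells, 9.61 and 9.70 in siPSF cells, and 11.16 and 11.02 in siControl cells. The siPSF arrays were thus lower than all others, with a difference between the knockdowns of 1.55 ± 0.12 (SE), or 2.93-fold. No transcript cluster is named for the CTBP1-AS RNA, so that knockdown was not checked here. CTBP1 itself differed by 0.09 and its divergent transcript CTBP1-DT by -0.30, and neither passed the test (adjusted p = 0.745 and 0.239). The other paraspeckle proteins NONO (-0.09) and PSPC1 (-0.47) and the nuclear RNA MALAT1 (0.10) did not pass either. PSPC1 had an unadjusted p of 0.0043 (limma, adjusted p = 0.083), with siPSF cells 0.50 above siControl cells. In LNCaP its difference between the knockdowns was -0.93 (limma, adjusted p = 0.0531). ERG, which marks VCaP, lay between 9.01 and 12.11 in the VCaP arrays and between 3.91 and 5.03 in the LNCaP arrays. NEAT1 was not analysed here. Correlations between VCaP arrays ran from 0.948 to 0.987, their medians differed by at most 0.059, and no arrays were identical. Few markers of other cell types passed the filter on dim genes: 3 basal epithelial, 4 fibroblast, 5 leukocyte and 1 endothelial genes were tested, with 0 called by limma. Of these, 1 fibroblast gene was lower at an unadjusted p under 0.05. Fewer cells of a type and less RNA per cell cannot be told apart in such bulk samples.

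With limma, 430 of 13812 genes tested (3.11%) differed between the knockdowns at an adjusted p under 0.05. Of these, 233 (1.69%) were higher and 197 (1.43%) were lower with siCTBP1-AS than with siPSF, and all 430 had the same sign with R1881 and with vehicle. That agreement is largely built into the test, whose spread is how siRNA effects differ between treatments. Over all tested genes the differences with vehicle and with R1881 correlated at 0.58. A further rule of size, at least 2-fold in the same direction in both treatments, held for 40 genes higher (0.29%) and 29 lower (0.21%), and 67 of these 69 were among the 430. The median over all genes was -0.003. At an unadjusted p under 0.05 there were 2580 of the 13812 genes, in either direction, which is the background for list counts at that level. The calls rest on all 4 knockdown arrays and on pairing by treatment. Without the siPSF R1881 array limma called 0 genes, though 1420 had an unadjusted p under 0.05. Without the siCTBP1-AS R1881, siPSF vehicle or siCTBP1-AS vehicle array it called 4, 15 and 40 genes, and without a treatment term 0 (711 at an unadjusted p under 0.05).

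**Figure D1:**
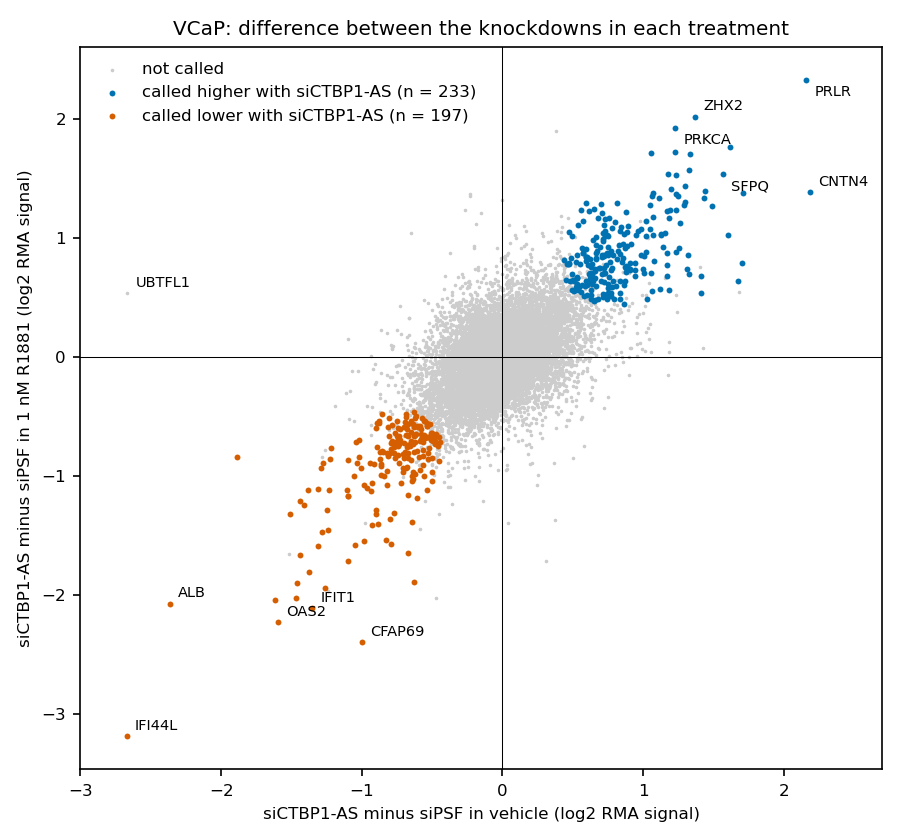
Difference between the knockdowns (siCTBP1-AS minus siPSF, log2 RMA signal) of each tested gene in VCaP, with vehicle on the x axis and with 1 nM R1881 on the y axis; colours mark genes called by limma. The 233 genes called higher lie in the upper right and the 197 called lower in the lower left, with PRLR and IFI44L at the ends.

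In the 12 genes with the largest differences on the higher side, siPSF cells lay below siControl cells in each treatment. PRLR, the prolactin receptor, had 8.89 with R1881 and 8.69 with vehicle in siCTBP1-AS cells, 6.56 and 6.53 in siPSF cells, and 8.71 and 8.54 in siControl cells. Its arrays did not overlap between the knockdowns, and the difference was 2.25 ± 0.11 (SE), or 4.74-fold (limma, adjusted p = 0.00105). CNTN4, a neuronal cell adhesion molecule, had 5.86 with R1881 and 7.15 with vehicle in siCTBP1-AS cells, 4.48 and 4.96 in siPSF cells, and 5.50 and 7.07 in siControl cells. Its difference was 1.79 ± 0.23 (adjusted p = 0.0135). ZHX2, a transcriptional repressor of the zinc finger and homeobox type, had 8.03 with R1881 and 7.55 with vehicle in siCTBP1-AS cells, 6.01 and 6.18 in siPSF cells, and 8.08 and 7.87 in siControl cells (difference 1.69). RORB, an orphan nuclear receptor, differed by 1.69 and PRKCA, protein kinase C alpha, by 1.58. NAALADL2 (1.55), the phospholipid methyltransferase PEMT (1.47), the calcium-binding copine CPNE4 (1.45), the reticulon RTN1 (1.42) and the cofilin phosphatase SSH2 (1.39) followed. TAS2R14 (1.52) belongs to a family of related taste receptor genes, so its value is uncertain.

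ERG was also higher. It had 11.55 with R1881 and 10.07 with vehicle in siCTBP1-AS cells, 10.20 and 9.01 in siPSF cells, and 12.11 and 10.38 in siControl cells. The arrays of the knockdowns overlap across treatments, but within each treatment siPSF cells had the lowest level, and the difference was 1.21 ± 0.15 (adjusted p = 0.0113). EGFR, the epidermal growth factor receptor, had 8.42 with R1881 and 7.42 with vehicle in siCTBP1-AS cells, 7.24 and 6.35 in siPSF cells, and 8.66 and 7.66 in siControl cells. Its difference was 1.12 ± 0.11 (adjusted p = 0.00573), while LRIG1, a negative regulator of EGFR family receptors, was lower by 0.60 (difference -0.60, adjusted p = 0.0446). Of 13 genes of the ERBB and PI3K list tested, these were the only ones called. Over all genes 1.69% were called higher and 1.43% lower. Among genes called higher as a whole, the median siCTBP1-AS minus siControl difference was 0.06 and the median siPSF minus siControl difference was -0.75. For genes called lower the corresponding medians were -0.37 and 0.40. These comparisons share arrays and are given as values only. Against siControl, limma called 113 genes higher (0.818%) and 74 lower (0.536%) with siCTBP1-AS, and 239 higher (1.73%) and 358 lower (2.59%) with siPSF.

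On the lower side, interferon-stimulated genes led. These antiviral genes are switched on by type I and type III interferon through a complex of transcription factors that binds the interferon-stimulated response element of their promoters. Of 29 such genes tested, 16 were lower and 0 were higher with siCTBP1-AS than with siPSF, beside a background of 1.43% of all genes called lower, and the list's median was -0.90 against -0.003 for all genes. The gene lists, here and below, were chosen with earlier results of these data known. Their counts beside a background describe the lists and are not a test of them. Of 11 sensors of double-stranded RNA, 4 were lower (IFIH1, OAS1, OAS2 and OAS3), 0 were higher, and the median was -0.69. Of 7 chemokines and cytokines tested, CXCL10, CCL2 and CCL5 were lower and CXCL1 was higher. The response element, searched as GAAANNGAAA on both strands in the 250 bases before the gene start (RefSeq, GRCh38.p14), was found for 11 of the 19 called genes of these lists that have a promoter in the table (57.9%), among 23 called in all. The share was 2.13% among promoters of all tested genes and 3.07% among all 27305 promoters. The antioxidant response element, searched the same way as TGACNNNGC, was found for 0 of 3 called genes of the NRF2 and AKR1C list with a promoter in the table, against 12.2% of tested genes. A match or its lack describes these letters only and says nothing about binding. The genes searched for the response element were picked from lists of interferon-related genes, so their high share follows in part from that choice. The share adds no evidence for the calls, and uncalled members of the lists were not counted apart. Promoter stretches of CXCL10, IFIT1, IFIT3 and IFITM1 are printed 5′ to 3′ on the gene's strand to show where the element lies, with its match in capitals (TTTCNNTTTC is the same element read on the other strand).
CXCL10 (chr4:76023684-76023743, minus strand, match starting 221 bases before the gene start): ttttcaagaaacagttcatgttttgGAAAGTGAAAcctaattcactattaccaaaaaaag
IFIT1 (chr10:89392482-89392554, plus strand, matches starting 116 and 103 bases before): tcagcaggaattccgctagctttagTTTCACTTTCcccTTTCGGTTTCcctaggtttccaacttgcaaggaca
IFIT3 (chr10:89327816-89327909, plus strand, matches starting 156 and 122 bases before): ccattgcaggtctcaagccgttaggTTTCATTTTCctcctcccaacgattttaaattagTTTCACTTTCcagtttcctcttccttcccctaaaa
IFITM1 (chr11:313975-314034, plus strand, match starting 40 bases before): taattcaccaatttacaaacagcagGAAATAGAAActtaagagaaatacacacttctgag

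IFI44L, an interferon-induced antiviral gene, had 6.57 with R1881 and 7.51 with vehicle in siCTBP1-AS cells, 9.76 and 10.18 in siPSF cells, and 4.37 and 4.69 in siControl cells. All 3 siRNAs were apart, siCTBP1-AS in the middle, and the difference between the knockdowns was -2.93 ± 0.16, or 7.61-fold lower (adjusted p = 0.00105). IFIT1, which binds viral RNA lacking the host's cap modification, had 8.77 with R1881 and 8.64 with vehicle in siCTBP1-AS cells, 10.89 and 9.99 in siPSF cells, and 6.16 and 5.67 in siControl cells. Its difference was -1.73 ± 0.18 (adjusted p = 0.00605). The chemokine CXCL10, whose promoter is printed with that of IFIT1, had 8.38 with R1881 and 7.66 with vehicle in siCTBP1-AS cells, 10.05 and 9.10 in siPSF cells, and 7.37 and 6.58 in siControl cells. With R1881 and with vehicle the order siPSF, siCTBP1-AS, siControl was the same as for IFIT1 (difference -1.55, adjusted p = 0.00424). OAS2, a sensor that makes the activator of RNase L, differed by -1.91, SAMD9L by -1.83, IFIT3 by -1.75, IFITM1 by -1.68 and the helicase-like DDX60L by -1.60. IFIH1, the cytoplasmic sensor MDA5, differed by -1.35 and CCL2 by -1.38. IFIT2 had 6.66 with R1881 and 6.53 with vehicle in siCTBP1-AS cells and 8.69 and 7.00 in siPSF cells, and it did not pass (-1.25, adjusted p = 0.117).

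Both knockdowns stood above siControl in this list, and the median gap between them was wider with R1881 than with vehicle. The list's median was 1.18 above siControl with siCTBP1-AS and 1.97 above it with siPSF. Between the knockdowns it was -1.18 with R1881 and -0.65 with vehicle, and the median response to R1881 was -0.003 with siCTBP1-AS, 0.42 with siPSF and -0.10 with siControl; this contrast of responses has 1 array a point and no test. The 5 leukocyte markers tested had a median difference of 0.07, and their part in the interferon result was not tested. Between the knockdowns, of 6 STAT and IRF factors 0 were called by limma (2 lower at an unadjusted p under 0.05), with IRF9 at -0.40 and IRF7 at -0.46 (adjusted p = 0.305 and 0.135). Against siControl, IRF9 was higher by 1.86 with siCTBP1-AS and by 2.26 with siPSF (adjusted p = 0.00738 and 0.00117). Of 9 antigen presentation genes 0 were called (3 lower at an unadjusted p under 0.05), with PSMB9, an immunoproteasome subunit, at -0.51 and the peptide transporter TAP1 at -0.57 (adjusted p = 0.0568 and 0.0931). TNFSF10, the death ligand TRAIL, was lower by 0.81 (difference -0.81, adjusted p = 0.0181), the only gene called among 15 apoptosis regulators. Over all genes 1.43% were called lower. With all 18 arrays in the fit, 4 interferon-stimulated genes, 1 sensor and 1 chemokine were called lower. Without each knockdown array in turn, between 0 and 6 interferon-stimulated genes were.

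**Figure D2:**
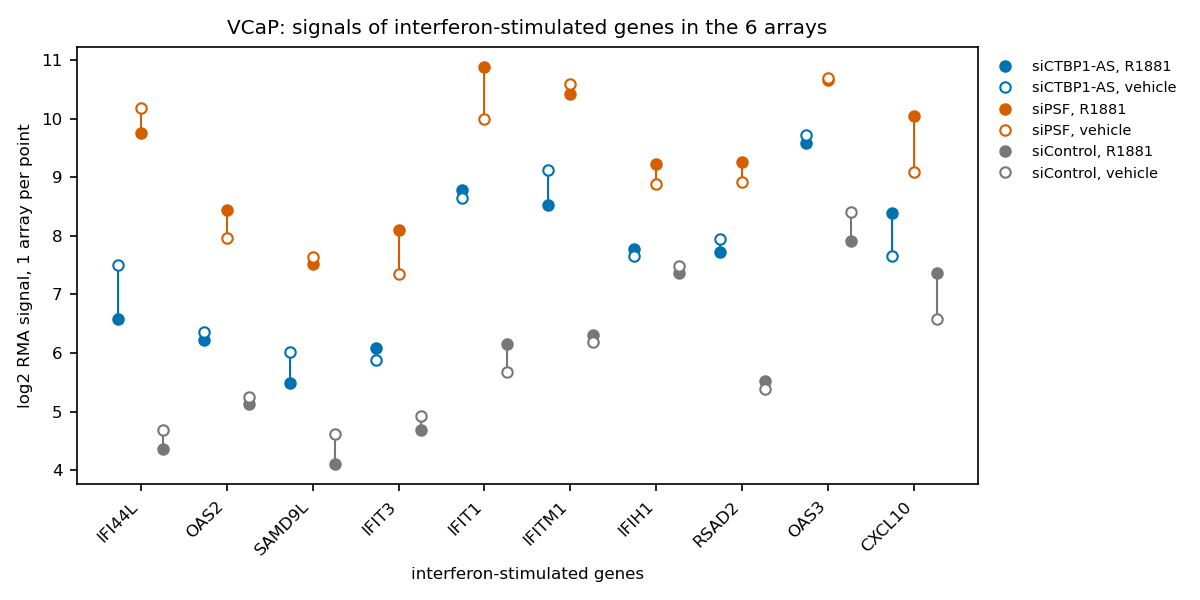
Log2 RMA signal of 10 interferon-stimulated genes in each VCaP array, with siCTBP1-AS on the left, siPSF in the middle and siControl on the right of each gene; filled points are R1881, open points vehicle. In all 10 genes both siPSF arrays lie above both siCTBP1-AS arrays, and the siCTBP1-AS arrays lie above the siControl arrays. All 10 are genes called lower, so the order of siPSF and siCTBP1-AS follows from that choice. CCL2, called lower but not shown, had 7.92 with R1881 and 8.38 with vehicle in siCTBP1-AS cells. In siControl cells it had 7.61 and 8.54.

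Several lower genes lay outside the interferon lists. ALB, the plasma protein albumin, had 7.53 with R1881 and 8.89 with vehicle in siCTBP1-AS cells, 9.60 and 11.25 in siPSF cells, and 8.99 and 10.95 in siControl cells. Here siCTBP1-AS cells were the lowest in each treatment, at -2.22 ± 0.15 against siPSF (4.66-fold lower, adjusted p = 0.00371) and -1.76 against siControl. HGF, the ligand of the MET receptor, had 7.60 with R1881 and 10.24 with vehicle in siCTBP1-AS cells, 9.19 and 11.55 in siPSF cells, and 8.01 and 11.46 in siControl cells. It was again lowest with siCTBP1-AS within each treatment (-1.45, adjusted p = 0.0224). LIX1 differed by -1.59 and CFAP69, a cilium and flagellum gene, by -1.70 (adjusted p = 0.0181 and 0.0467). LUM, which encodes the matrix proteoglycan lumican, met the rule of size but not the test, at 5.15 with R1881 and 8.58 with vehicle in siCTBP1-AS cells against 6.80 and 10.10 in siPSF cells (-1.59, adjusted p = 0.0515). The other gene of the kind, SNORA14A, is named after its values were seen (-1.60, adjusted p = 0.109).

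Genes of sterol and fatty acid synthesis were among those lower with siCTBP1-AS. Of 18 genes of cholesterol synthesis and uptake control tested, 6 were lower (STARD4, HMGCS1, SQLE, FDPS, MVK and LSS), beside 1.43% of all genes, 0 were higher and 17 differences were below 0, with a list median of -0.44. HMGCS1, which makes HMG-CoA for the mevalonate pathway, had 10.68 with R1881 and 9.26 with vehicle in siCTBP1-AS cells, 11.58 and 10.12 in siPSF cells, and 11.11 and 9.31 in siControl cells. It was higher with R1881 for every siRNA, and within each treatment siPSF cells had the highest level (difference -0.88 ± 0.13, adjusted p = 0.0199). SQLE, the squalene epoxidase, had 11.17 with R1881 and 10.32 with vehicle in siCTBP1-AS cells, 11.96 and 11.17 in siPSF cells, and 11.47 and 10.58 in siControl cells (difference -0.82, adjusted p = 0.015). FDPS, the farnesyl diphosphate synthase, differed by -0.76 and the sterol carrier STARD4 by -1.03. Of 15 fatty acid genes, SCD, the stearoyl-CoA desaturase, and ACSL1, a fatty acyl-CoA ligase, were lower (-0.72 and -0.61, adjusted p = 0.0337 and 0.0479). The list's median was -0.36, and FASN (-0.43) and SREBF1 (-0.53) did not pass (adjusted p = 0.113 and 0.191). The cholesterol count of 6 was 3 with all 18 arrays, 3 without the filter on dim genes and 0 whichever of the 4 knockdown arrays was left out.

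Genes of stress responses were among those higher with siCTBP1-AS. ATF4 is the transcription factor of the amino acid response, and of 19 of its targets and amino acid genes 6 were higher (CHAC1, SLC7A11, STC2, SLC7A5, SESN2 and CEBPB), beside a background of 1.69%, and 0 were lower, with a median of 0.39. CHAC1, which degrades glutathione, had 9.69 with R1881 and 8.81 with vehicle in siCTBP1-AS cells, 8.39 and 8.00 in siPSF cells, and 6.98 and 6.96 in siControl cells. Each knockdown stood above siControl and siCTBP1-AS above siPSF (1.05 ± 0.19, adjusted p = 0.0341). SLC7A11, the cystine transporter, had 10.87 with R1881 and 10.81 with vehicle in siCTBP1-AS cells, 9.95 and 9.68 in siPSF cells, and 9.28 and 9.52 in siControl cells (1.03, adjusted p = 0.0163). Of 12 genes of the NRF2 oxidative stress response and the AKR1C family, 5 were higher (SLC7A11, AKR1C1, NQO1, AKR1C3 and HMOX1) and 0 were lower, with a median of 0.51. SLC7A11 is in the ATF4 list too and counts in both, so the counts are not separate. NQO1, a quinone reductase, had 9.27 with R1881 and 8.65 with vehicle in siCTBP1-AS cells, 8.06 and 7.94 in siPSF cells, and 8.00 and 7.73 in siControl cells (0.96, adjusted p = 0.0197). Its siPSF arrays were close to siControl. AKR1C1 (0.97) and AKR1C3 (0.93), which reduce steroid ketones, belong to a family of similar sequence, so their values are uncertain. With all 18 arrays in the fit 0 genes of the ATF4 list and 1 of the NRF2 list were called by limma, and without each knockdown array in turn 0 or 1 and 0.

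**Figure D3:**
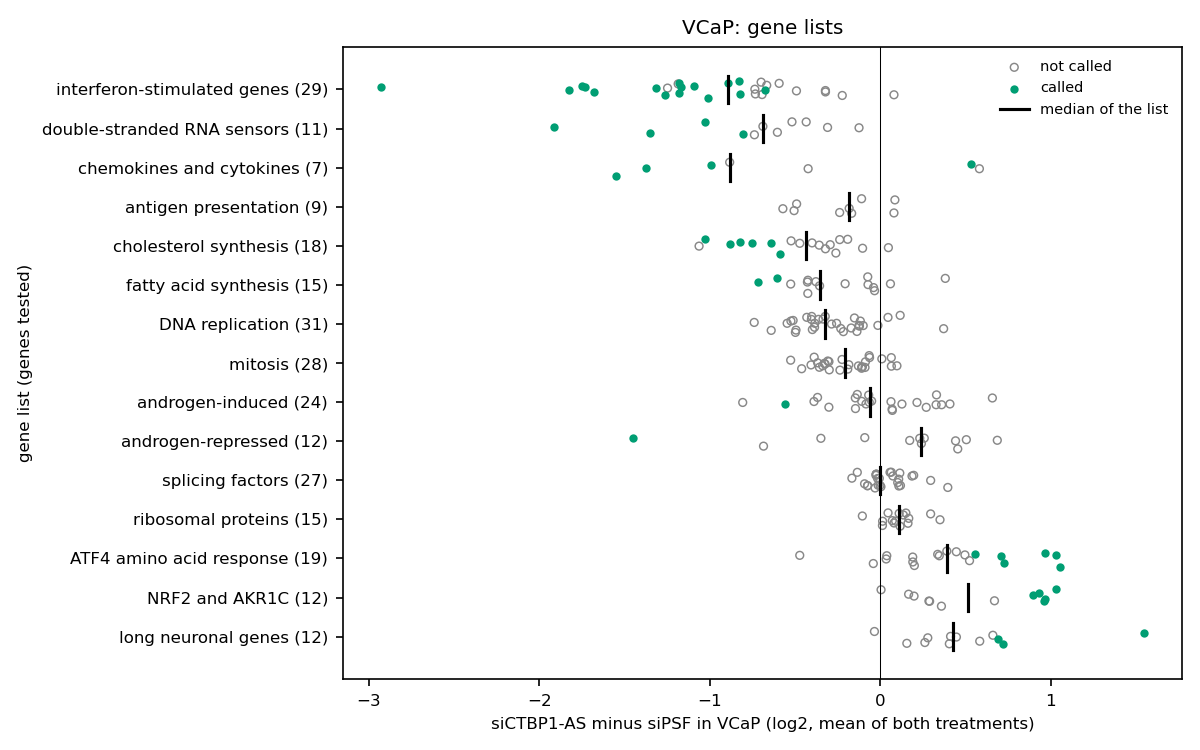
Difference between the knockdowns in VCaP (siCTBP1-AS minus siPSF, log2, mean of both treatments) of each tested gene in 15 lists, filled where called by limma, with the list's median as a bar. Interferon, sensor and sterol genes lie mostly below 0, ATF4, NRF2 and long neuronal genes mostly above 0.

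The remaining lists gave few calls. Over all genes 1.69% were called higher and 1.43% lower, so single calls in lists of 10 to 22 genes describe those genes only. Of 22 immediate early genes FOS was higher (0.86) and the feedback inhibitor SPRY4 lower (-0.84), with a median of 0.28. Of 18 glycolysis and hypoxia genes the kinase PGK1 was higher (0.64) and the collagen prolyl hydroxylase subunit P4HA1 lower (-0.80). Of 13 genes of the RNA interference machinery, DICER1, the enzyme that cuts microRNA precursors, was higher (0.55), while 11 differences were below 0, with a median of -0.19. Of 10 neuroendocrine genes the adhesion molecule NCAM1 was higher (0.71), with a median of 0.18. Of 18 chaperones and folding genes of the endoplasmic reticulum the ubiquitin ligase SYVN1 was lower (-0.62), and 17 differences were below 0, with a median of -0.18. The counts at an unadjusted p under 0.05 that follow stand beside 2580 of 13812 genes, in either direction. Limma called 0 of 31 DNA replication genes, with 14 lower and 1 higher at an unadjusted p under 0.05, 28 differences below 0 and a median of -0.32. The lowest of these was the replication initiator MCM10, at 6.69 with R1881 and 8.51 with vehicle in siCTBP1-AS cells, 7.59 and 9.09 in siPSF cells, and 6.39 and 8.75 in siControl cells (-0.74, adjusted p = 0.0917). CDC6 (-0.64) and MCM5 (-0.55) did not pass. Of 28 mitosis genes 0 were called by limma, 8 being lower at an unadjusted p under 0.05, with a median of -0.21 and NUSAP1, a spindle protein, at -0.53 (adjusted p = 0.101). None of 27 splicing factor genes (median -0.001), 15 ribosomal protein genes (0.11), 15 genes of CTBP1 and Sin3A-HDAC corepressors (-0.09), 17 TGF-beta, 18 SRF target, 7 EMT, 11 cell cycle inhibitor, 10 polyamine, 15 BMP receptor and ID or 13 histone genes passed limma's test, with 0 to 3 genes of a list at an unadjusted p under 0.05 in a direction. Among these, HDAC1 was at 0.49, CDKN1B at 0.54 and the adhesion protein VCL at -0.52 (adjusted p = 0.0667, 0.0544 and 0.0619).

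Long genes were called higher more often than short ones. SFPQ protein is known from mouse neurons to be needed for the transcription of long genes. Of 262 tested genes of 400 kb and over, 40 were higher (15.3%) and 1 was lower (0.382%) with siCTBP1-AS than with siPSF. The class had a median of 0.24 with R1881 and 0.22 with vehicle, and 196 of its genes (74.81%) had differences above 0, against 49.44% of all genes. Of 609 genes of 200 to 400 kb, 7.88% were higher and 0.985% lower, and of 1408 genes of 100 to 200 kb, 3.12% and 1.78%. The shorter classes had 1.27% and 2.16% (30 to 100 kb), 0.566% and 1.39% (10 to 30 kb), and 0.75% and 0.666% (under 10 kb). Genes called higher had a median length of 140.4 kb and genes called lower of 40.7 kb, against 26.16 kb over all tested genes. Against siControl, the longest class had a median of -0.11 with siCTBP1-AS and -0.34 with siPSF. Over the upper 50% of genes by signal, a check added after the data were seen, 15.6% of the 96 longest genes were higher. Without each knockdown array in turn the count of 40 fell to between 0 and 6, and with all 18 arrays it was 28.

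NAALADL2, a peptidase-like gene of 1370 kb, had 8.88 with R1881 and 9.47 with vehicle in siCTBP1-AS cells, 7.50 and 7.76 in siPSF cells, and 9.17 and 9.71 in siControl cells. Its siPSF arrays lay below all others (1.55 ± 0.13, adjusted p = 0.0045). FTO, an RNA demethylase, had 8.83 with R1881 and 9.38 with vehicle in siCTBP1-AS cells, 8.09 and 8.69 in siPSF cells, and 8.87 and 9.74 in siControl cells (0.72, adjusted p = 0.0295). PARD3B, a polarity gene, differed by 0.69 and the diadenosine hydrolase FHIT by 0.66, of which FHIT did not pass (adjusted p = 0.107). These belong to a list labelled long neuronal genes, of which 12 of 25 on the array passed the filter on dim genes. Of the 12 tested, 3 were higher and 0 lower, with a median of 0.43. Over all genes 1.69% were called higher and 1.43% lower. CNTN4, CPNE4 and PRKCA, among the 12 largest differences on the higher side, are 959.1, 506.0 and 508.1 kb long.

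**Figure D4:**
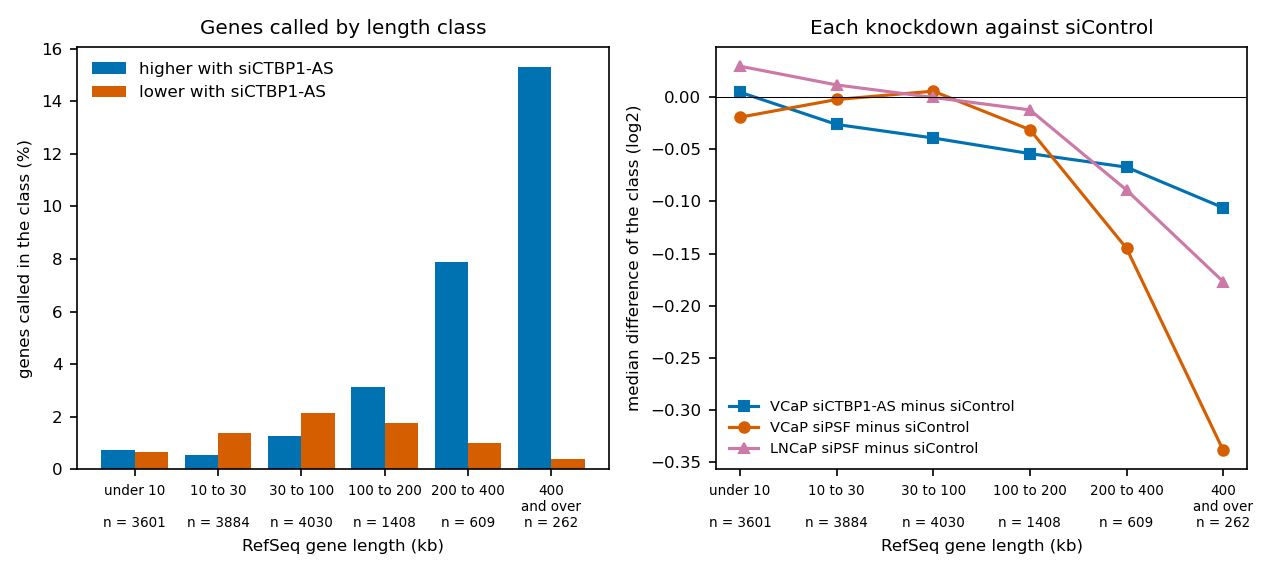
Left, percent of tested genes called higher (blue) or lower (orange) with siCTBP1-AS than with siPSF in VCaP, by RefSeq gene length in kb. Right, median log2 difference from siControl of each length class for siCTBP1-AS and siPSF in VCaP and siPSF in LNCaP. The share called higher reaches 15.3% at 400 kb and over, where siPSF medians are -0.34 in VCaP and -0.18 in LNCaP.

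The responses to androgen after both knockdowns were set side by side. Across genes the R1881 minus vehicle differences of siCTBP1-AS and siPSF cells correlated at 0.80, a description over 13812 genes that share arrays with the main comparison. KLK3, the gene of prostate-specific antigen, had 12.39 with R1881 and 10.16 with vehicle in siCTBP1-AS cells, 12.36 and 10.06 in siPSF cells, and 12.64 and 10.89 in siControl cells. Its knockdown difference was 0.06 (adjusted p = 0.877) and its responses were 2.23, 2.30 and 1.75. Of 24 androgen-induced genes only ORM2, an acute-phase glycoprotein, was called, lower by 0.56 (difference -0.56, adjusted p = 0.0421), and ORM2 shares probes with a near-identical relative. SLC45A3, a prostate transporter, was at -0.81 (adjusted p = 0.0534). Of 12 androgen-repressed genes only HGF was called, and WNT2 was at 0.69 (adjusted p = 0.184). Over all genes 1.43% were called lower. The median response of the 24 induced genes was 0.96 with siCTBP1-AS, 1.15 with siPSF and 0.96 with siControl, and that of the 12 repressed genes -2.09, -1.91 and -2.69, as values without a test.

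The signed response to R1881 (R1881 minus vehicle) was higher by at least 2-fold with siCTBP1-AS than with siPSF for 20 genes (0.145%) and lower by at least 2-fold for 29 (0.21%), with 1 array behind each point and no test. TGFB2, a secreted growth factor, responded by 3.10 with siCTBP1-AS, 1.60 with siPSF and 0.99 with siControl. CST1, a cystatin protease inhibitor, responded by 3.35, 1.84 and 3.44, and GPRC5D by 1.83, 0.22 and 1.56. In CST1 and GPRC5D the siPSF response was thus the smallest. UBTFL1 responded by -0.79, -3.99 and -3.09, a response difference of 3.20, AKR1C2 by 0.81, -0.88 and -0.16, and PRDM16-DT by 0.96, -0.62 and -0.43. In the other direction AZGP1, a secreted prostate glycoprotein, responded by 0.37 with siCTBP1-AS, 2.12 with siPSF and 1.70 with siControl. PI15 responded by -0.82, 1.20 and -1.63, IFIT2 by 0.13, 1.69 and 0.04, and CFAP69 by 1.12, 2.52 and 0.82. GOLIM4 responded by -2.10, -0.75 and -1.56, and for DPY19L2P2 the response differed by -1.43 between siCTBP1-AS and siPSF. AKR1C2 is also of this family of similar sequence (AKR1C) and its value is uncertain. Some of these levels were low beside VCaP array medians of 6.22 to 6.28. UBTFL1 had 4.60 with R1881 and 5.39 with vehicle in siCTBP1-AS cells, and 4.06 and 8.05 in siPSF cells. PI15 had 5.21 and 6.03, and 6.93 and 5.72. GOLIM4 was brighter, between 9.54 and 11.71 in the knockdown arrays. With the lower 50% of genes left out, the counts of 20 and 29 were 5 and 13.

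The same contrast was made in LNCaP through each set's own siControl, since its knockdowns lie in different sets. There SFPQ was lower with siPSF than with siControl by 0.79 (difference -0.79), against a difference of -1.44 in VCaP. What this smaller fall means for the differences between the lines was not tested. In LNCaP limma called 69 genes higher (0.5%) and 35 lower (0.253%) with siCTBP1-AS than with siPSF. Of 190 genes called higher in VCaP and tested in LNCaP, 116 (61.05%) had a LNCaP difference above 0, against 46.9% of all genes. Of 170 called lower in VCaP, 52 (30.59%) had one below 0, against 53.1% of all genes. Genes called higher in both lines numbered 13, and they are named after their values were seen: AKR1C1, CPE, CSTPP1, FARS2, HDAC8, HS2ST1, MAP2, MBD5, PEPD, RTN1, SCFD2, SORBS2 and SSH2. RTN1 differed by 1.42 in VCaP and 1.41 in LNCaP, and SSH2 by 1.39 and 1.40. Limma called 0 genes lower in both lines. At an unadjusted p under 0.05, 9 of the 170 genes called lower in VCaP were lower in LNCaP. On the other side, 61 of the 190 genes called higher in VCaP were higher in LNCaP at that level. Of all 13812 genes tested in LNCaP, 2244 had an unadjusted p under 0.05, in either direction. Opposite calls were made for MAP1B and SLC7A5, higher in VCaP and lower in LNCaP, and for 11 genes lower in VCaP and higher in LNCaP, among them IFIT1, IFITM1, IFIH1, OAS1 and CCL5. MAP1B, a microtubule protein named after its values were seen, differed by 1.03 in VCaP and -2.04 in LNCaP. In genes of 400 kb and over, 145 of 207 tested in LNCaP were above 0, with 8 called higher and 0 lower.

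Interferon genes lay on the other side in LNCaP. Of 28 tested there, 7 were higher and 0 lower with siCTBP1-AS than with siPSF, with a median of 2.13, against -0.90 in VCaP. Over all genes tested in LNCaP, 0.5% were called higher and 0.253% lower. In LNCaP the list's median above siControl was 2.68 in the siCTBP1-AS set and 1.55 in the siCTBP1-AS #2 set, but 0.04 in the siPSF set. IFIT1 was above siControl by 4.22 and 4.43 in the LNCaP siCTBP1-AS sets and at -0.24 in the siPSF set, while in VCaP it was above siControl by 2.79 with siCTBP1-AS and 4.52 with siPSF. Its difference between the knockdowns was thus -1.73 in VCaP and 4.56 in LNCaP. Tested directly over 18 arrays with limma, the knockdown difference itself differed between the lines for 277 genes (2.01%), 121 higher (0.876%) and 156 lower (1.13%) in VCaP. Of these, 257 were bright enough to be tested in each line on its own, 113 of them higher and 144 lower in VCaP. The others were too dim in a line to be tested there. Of 28 interferon-stimulated genes, 18 were lower and 0 higher in VCaP by that test. The largest were IFIT1, at -6.30 in VCaP minus LNCaP, CXCL10 at -5.97, IFI44L at -5.66, IFIT2 at -5.63, IFIT3 at -5.26 and SAMD9 at -5.17. The LNCaP side of this test averages the siCTBP1-AS and siCTBP1-AS #2 sets, while VCaP had #2 only. Above siControl in these LNCaP sets, CXCL10 was at 6.19 and 2.54 and IFIT3 at 4.83 and 2.22. IFI44L was at 4.40 and 3.45, IFIT2 at 4.61 and 3.45, and SAMD9 at 3.73 and 3.41. ATF4 genes also differed, with 7 of 19 called higher in VCaP and medians of 0.39 in VCaP and -1.07 in LNCaP. CHAC1 stood at 1.05 in VCaP and -2.17 in LNCaP. The LNCaP siCTBP1-AS and siPSF sets had the same 10 nM R1881, while the siCTBP1-AS #2 set had 1 nM. In LNCaP the siRNA and the array set cannot be told apart.

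**Figure D5:**
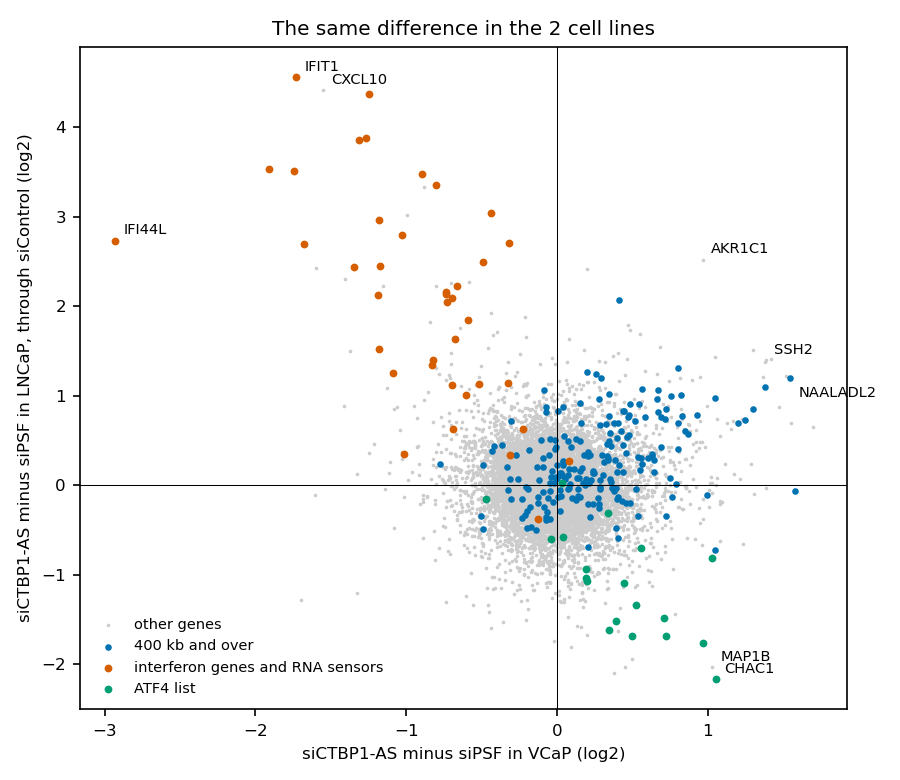
Difference between the knockdowns (siCTBP1-AS minus siPSF, log2) of genes tested in both lines, in VCaP on the x axis and in LNCaP, through siControl, on the y axis; colours mark genes of 400 kb and over, interferon genes with RNA sensors, and the ATF4 list. Most interferon genes lie in the upper left and most ATF4 genes in the lower right; of the 207 longest genes 145 lie above 0 on the y axis.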

How the data were processed

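Total RNA was measured on Affymetrix Human Gene 1.0 ST arrays. The deposited table holds log2 signals, 1 per transcript cluster and array. The authors computed them by RMA in Affymetrix Expression Console 1.1.1, as the submitters' processing notes record. The grouping of arrays for RMA is not given in the sources. Set medians ran from 5.74 to 6.80, so levels were compared within a set. The exception was ERG, whose levels were given across sets as a marker of VCaP. Of 33297 clusters, 19460 had 1 gene symbol, and the brightest cluster over 18 arrays stood for each of 18417 symbols. The dimmest 25% of genes were left out, leaving 13812. Gene lengths came from RefSeq GRCh38.p14 (99.87% of genes).

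limma 3.58.1 (R 4.3.3) was fitted to the 6 VCaP arrays with siRNA and treatment terms (2 residual degrees of freedom, prior 5.62), with Benjamini-Hochberg adjustment over all tested genes. Errors are standard errors of that fit, in which the spread is how siRNA effects differ between treatments. LNCaP was fitted over 12 arrays with set as a block, and the lines over 18. An exact permutation test of 2 arrays against 2 cannot go below p = 0.3333. Scripts were tested on simulated data.

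Named genes were the 12 highest and 12 lowest called genes, fixed genes of the targets and paraspeckles, up to 4 per list, and the largest response and line differences. Members and lists were chosen with earlier results of these data known. Other fits, filters, scalings and array omissions were tried. The number of arrays limits precision.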

Additional observations from a re-analysis of the deposited data

Results flagged for a closer look

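For 19 named genes bright enough to be tested in each line on its own, the difference between the knockdowns itself differed between VCaP and LNCaP in limma's test over 18 arrays (adjusted p under 0.05). All values here are the VCaP minus the LNCaP difference on the log2 scale. The LNCaP difference averages the siCTBP1-AS and siCTBP1-AS #2 sets, while VCaP had #2 only. It was negative for the interferon and sensor genes IFIT1 (-6.30), IFI44L (-5.66), IFIT2 (-5.63), IFIT3 (-5.26), SAMD9 (-5.17), IFITM1 (-4.38), OAS1 (-4.16), DDX60L (-4.02), OAS3 (-3.83) and IFIH1 (-3.79), for the chemokines CXCL10 (-5.97) and CCL5 (-4.02), and for STAT3 (-0.73). It was also negative for the sterol gene FDPS (-1.42). It was positive for the ATF4 list genes CHAC1 (3.22), STC2 (2.73) and SLC7A5 (2.40), and for ZHX2 (1.04) and DICER1 (0.81). PRLR, RORB, CPNE4, ERG and ALB were too dim in LNCaP to be tested there, so they are not counted. No group held enough arrays to test for outlying samples.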

How the results depend on the processing

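Counts of genes higher and lower in VCaP, 233 and 197 as reported, were 525 and 496 with the 4 knockdown arrays alone, 152 and 107 with all 18 arrays, and 412 and 448 with an intensity trend. They were 0 and 0 without the treatment term, 161 and 119 without the filter, and 314 and 337 with the lower 50% left out. Leaving out each array in turn gave 0 to 528 higher and 0 to 500 lower, with the siControl arrays at the upper end. With all 18 arrays, 213 of the 398 called genes tested there stayed called, each with the same sign. Leaving out each array in turn moved the uncalled differences of NONO over -0.189 to 0.018, of CTBP1 over -0.01 to 0.191 and of KLK3 over -0.092 to 0.218, so each changed sign. KLK3 was also at -0.04 without the siCTBP1-AS R1881 array. No other VCaP difference of a gene given in the text changed sign under the alternatives run, except those given as responses only, which were not rerun one by one. Median shifts over all genes stayed between -0.035 and 0.008. Genes with a signed response at least 2-fold higher or lower, 20 and 29, numbered 48 and 46 without the filter and 5 and 13 with the lower 50% left out. In LNCaP the 69 and 35 genes became 2 and 0 with no replicate block (siControl numbers pair arrays by set; 2713 had an unadjusted p under 0.05), 549 and 597 with the sets of siCTBP1-AS #2 and siPSF, and 105 and 32 with those of siCTBP1-AS and siPSF. Without the LNCaP siCTBP1-AS set, an alternative chosen after seeing the data, 699 and 724 genes differed between the lines. The causes were not tested.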
